A study of Mus musculus with 4 samples.

Results

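CD antigens are surface proteins of leukocytes and other cells that received a cluster of differentiation number from the antibodies that recognize them. The genes described here carry such a number in their symbol (Cd followed by a digit) or are *Ly9*, which encodes CD229. They were taken by symbol from the authors' deposited table of α-DR3 against PBS and from the gene names of a supplementary sheet of the study. *Cd14*, *Cd40*, *Cd68* and *Cd74* were set aside. The rule found 36 genes, of which 21 are among the 2179 genes of the deposited table. The remaining 15 were found by name in the part of the sheet that was read (1999 gene names), and their levels were not analysed here.

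Group 3 innate lymphoid cells (ILC3s) are lymphocytes of mucosal tissue that produce IL-22 and lack rearranged antigen receptors. They sense their surroundings through surface receptors, many of which they share with T cells and NK cells. Tetraspanins organize other membrane proteins into domains, SLAM family receptors bind one another on neighbouring leukocytes, and costimulatory and coinhibitory receptors tune the response of a lymphocyte to a partner cell.

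The ILC3s came from the large intestine of littermate Rag1-/- mice with a GFP reporter allele, where lamina propria lymphocytes without lineage markers (Lin-) and with GFP were purified. All mice lacked *Rag1*, and hence mature T and B cells, and carried 1 copy of the reporter, whose GFP marks ILC3s among the cells without lineage markers. One group was given 1 µg of α-DR3 (clone 4C12), an agonistic antibody against the TL1A receptor DR3, and the other was given PBS, and cells were purified on day 3. Each group had 2 libraries, and each library pooled the cells of several mice. The deposited table gives the mean FPKM of each group, a level of RNA scaled to transcript length and library size, averaged by the authors over the duplicates. Surface protein is not part of these values. It holds no value for a single library, so no SD, n, interval or test accompanies the levels below, the depth of the libraries is unknown, and a difference cannot be set against the spread between replicates. The authors listed a gene only if it passed their test on these same libraries and averaged over 1 FPKM in PBS or in α-DR3, so each listed gene had to differ, and the direction and size given here are a description of selected genes. The ratios were calculated here from the 2 means, α-DR3 over PBS. In bulk RNA from sorted cells, fewer cells of a type and less RNA per cell cannot be told apart.

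The CD antigen genes in the table split in both directions. Of the 21, 13 had a higher mean in α-DR3 and 8 a lower one (61.9% higher, against 54.6% of all listed genes). A ratio past 1.5-fold was reached by 8 higher and 8 lower CD antigen genes (38.1% each), beside 37.1% of listed genes for higher and 38.4% for lower means. These shares were near those of the whole table. The median log2 ratio was 0.47 for the CD antigen genes and 0.39 for all listed genes.

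The balance differed without the genes at the low end of the scale. Of the 13 higher genes, 5 had a mean under 1 FPKM in PBS and could enter the table only by being higher in α-DR3. All 16 others were over 1 FPKM in both groups, and of these 3 were higher and 8 lower past 1.5-fold (18.8% and 50%), where 31.9% and 39.9% of the 1889 listed genes over 1 FPKM in both groups were. Their median log2 ratio was -0.16, against 0.34 for the 1889 genes. The direction of the median therefore turned with the 5 low genes.

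**Figure D1:**
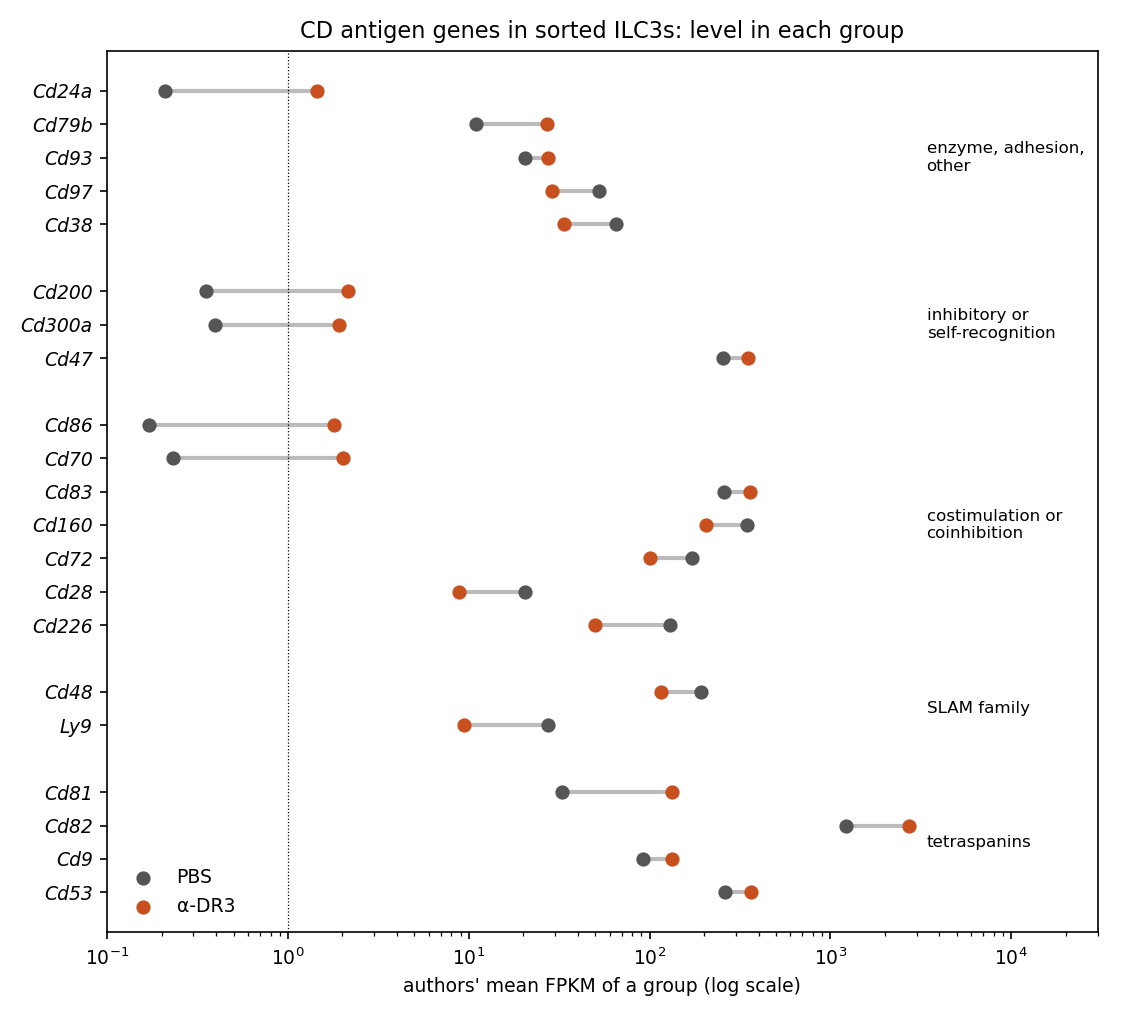
Authors' mean FPKM of each of the 21 CD antigen genes (log scale) in PBS (grey) and α-DR3 (orange), grouped by the role of the product, with the dotted line at 1 FPKM. Each point is a mean over duplicates, shown without an error because values of single libraries were not used. The 4 tetraspanin genes lie to the right in α-DR3, both SLAM family genes lie to the left, and 5 genes start below 1 FPKM in PBS.

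Tetraspanins are proteins with 4 membrane-spanning segments, and all 4 tetraspanin genes with a CD symbol in the table had a higher mean in α-DR3. The promoters of 3 of them are shown because these genes shared a direction, and those of *Cd82*, which has several starts, are not shown because they meet exons of its other transcripts. The sequences are those of RefSeq on GRCm38.p6, limited to bases before the start of transcription and outside exons of the gene in GENCODE M21, and read 5′ to 3′ on the strand of the gene. Capitals mark GGGCGG (a GC box) or CCAAT, on either strand.
*Cd81*, chr7:143052500-143052738, plus strand: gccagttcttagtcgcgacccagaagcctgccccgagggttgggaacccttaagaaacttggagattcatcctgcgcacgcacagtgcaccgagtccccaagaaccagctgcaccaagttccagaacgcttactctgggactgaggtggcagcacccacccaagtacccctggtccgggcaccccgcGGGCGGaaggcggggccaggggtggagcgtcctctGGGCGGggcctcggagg
*Cd9*, chr6:125494792-125495010, minus strand: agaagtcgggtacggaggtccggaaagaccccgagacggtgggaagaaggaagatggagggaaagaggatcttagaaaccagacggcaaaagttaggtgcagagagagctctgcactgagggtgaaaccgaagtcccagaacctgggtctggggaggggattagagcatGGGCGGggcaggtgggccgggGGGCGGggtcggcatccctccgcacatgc
*Cd53*, chr3:106790150-106790399, minus strand: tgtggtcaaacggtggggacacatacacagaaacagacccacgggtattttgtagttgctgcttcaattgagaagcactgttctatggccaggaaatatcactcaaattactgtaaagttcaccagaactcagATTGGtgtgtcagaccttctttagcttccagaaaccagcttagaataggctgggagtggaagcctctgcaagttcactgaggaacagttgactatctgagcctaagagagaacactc
In the 250 bases before the RefSeq start, *Cd81* held 3 GC boxes, the closest of them reaching into exon sequence of GENCODE M21 and not marked, *Cd9* held 2, and *Cd53* held none. *Cd53* held 1 CCAAT on the opposite strand.

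*Cd82*, a tetraspanin of lymphocytes and other cells also known as KAI1, had the highest level in both groups among the 21 CD antigen genes with values. Its mean was 1214 FPKM in PBS and 2713 in α-DR3, 2.24 times higher, which placed it 9th among the 2179 listed genes in PBS and 4th in α-DR3. *Cd82* accounted for 38.5% of the FPKM summed over the 21 genes in PBS and for 58.2% in α-DR3. *Cd81*, which associates with integrins and other membrane proteins, had the largest ratio among the 16 CD antigen genes over 1 FPKM in both groups. Its mean was 32.9 FPKM in PBS and 132.7 in α-DR3, 4.04 times higher. *Cd9*, a tetraspanin linked to adhesion and membrane fusion, had 91.7 FPKM in PBS and 133.6 in α-DR3, a ratio of 1.46. *Cd53*, which is found on most leukocytes, had 259.8 and 362.1 FPKM, a ratio of 1.39. *Cd81* and *Cd9*, which differed in PBS, had almost equal means in α-DR3.

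The whole tetraspanin family was less uniform. The table lists 8 tetraspanin genes, of which 6 had a higher and 2 a lower mean, with a median log2 ratio of 0.58. *Tspan13* (77.0 FPKM in PBS and 118.7 in α-DR3) and *Tspan18* (1.06 and 2.78) were higher. *Tspan14*, a partner of the protease ADAM10, had a lower mean (46.4 and 28.4), as had *Tspan32* (6.05 and 2.86). *Tspan32* lies on the same strand of chromosome 7 as *Cd81* and ends 33.1 kb before it (143005046 to 143019644, against 143052739 to 143067934 on GRCm38), so these neighbours differed in direction.

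Both SLAM family receptors in the table had a lower mean in α-DR3. *Ly9* binds itself on adjacent cells and signals through the adaptor SAP. Its mean was 27.4 FPKM in PBS and 9.35 in α-DR3, 2.93 times lower, the lowest ratio among the 21 genes. *Cd48*, a GPI-anchored protein and the ligand of CD244, had 191.7 FPKM in PBS and 115.2 in α-DR3, 1.66 times lower. *Cd244*, which encodes that receptor, was one of the 15 genes known by name only. Of 16 genes of the SLAM family and its adaptors and phosphatases, 4 are in the table. All 4 were lower, with a median log2 ratio of -0.92, where 989 of all 2179 listed genes were lower. A lower mean past 1.5-fold was reached by 3 of the 4 (not *Inpp5d*, 1.497 times lower), beside 38.4% of all listed genes. Besides *Ly9* and *Cd48*, the 4 were *Ptpn6*, the gene of the phosphatase SHP-1 (107 FPKM in PBS and 49.6 in α-DR3), and *Inpp5d*, the gene of the phosphatase SHIP-1 (77.5 and 51.7). These phosphatases act downstream of many inhibitory receptors and not only of the SLAM family.

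*Ly9* (1:171588624 to 171607410, minus strand, GRCm38) and *Cd48* (1:171682009 to 171705258, plus strand) lie in a cluster of 7 SLAM family genes that spans 394 kb, and the other 5 genes of the cluster are not in the table. *Ly9* lies within the span of *Cd244a*, which is on the opposite strand. No exonic base was shared between these genes, and none of the 3353 different 50-base stretches of the *Ly9* transcripts was found in transcripts of another gene.

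**Figure D2:**
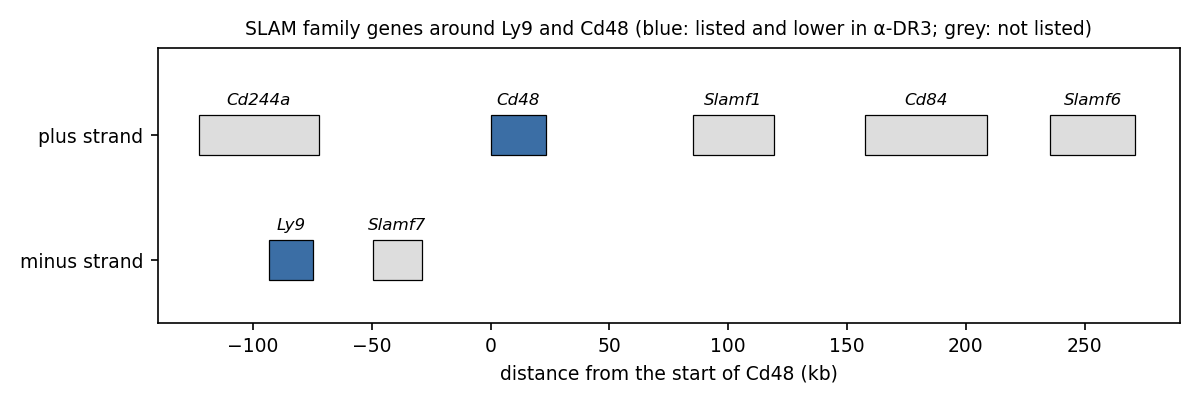
Map of the 7 SLAM family genes around *Ly9* and *Cd48*, by strand and by distance from the start of *Cd48* in kb (GENCODE M21 on GRCm38). Blue boxes are genes in the deposited table, both lower in α-DR3, and grey boxes are genes that are not in the table. *Ly9* lies at -93.4 to -74.6 kb from the start of *Cd48*, and *Slamf7* lies between them.

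Among costimulatory and coinhibitory molecules, 3 genes were higher and 4 lower in α-DR3. *Cd226* encodes DNAM-1, an activating receptor for CD155 and CD112. Its mean was 129.9 FPKM in PBS and 50.03 in α-DR3, 2.60 times lower. *Cd28*, the receptor for CD80 and CD86 on T cells, had 20.5 and 8.77 FPKM, 2.33 times lower. *Cd160*, a receptor for HVEM on NK cells, intraepithelial lymphocytes and ILCs, had 345.1 and 205.6 FPKM, 1.68 times lower. It remained the most abundant of these 7 genes in PBS, but *Cd83* exceeded it in α-DR3. *Cd72*, a C-type lectin best known as a coreceptor of B cells, had 172.3 and 99.9 FPKM, 1.72 times lower.

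The higher genes of this kind were of very different abundance. *Cd83*, an activation marker of dendritic cells and lymphocytes, had 258.2 FPKM in PBS and 356.5 in α-DR3, a ratio of 1.38. *Cd86*, a ligand of CD28, had 0.17 and 1.78 FPKM, and *Cd70*, the ligand of CD27, had 0.23 and 2.02. The ratios of 10.5 for *Cd86* and 8.80 for *Cd70* were the largest of the 21 genes but rest on PBS levels near 0. Their direction was fixed by the authors' limit of 1 FPKM. *Cd28*, at 8.77 FPKM in α-DR3, was still above its ligand gene *Cd86*, at 1.78 FPKM.

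A separate list of 24 genes of costimulation and coinhibition does not hold *Cd72* and *Cd83*. A higher mean was found for 54.6% of all listed genes. Of the genes of this list 9 are in the table, 6 with a higher and 3 with a lower mean. Besides *Cd86*, *Cd70*, *Cd226*, *Cd28* and *Cd160* these were *Pdcd1*, the gene of the inhibitory receptor PD-1 (98.5 FPKM in PBS and 142.0 in α-DR3), *Pvr*, the gene of the DNAM-1 ligand CD155 (7.10 and 11.4), *Havcr2*, the gene of TIM-3 (1.44 and 5.64), and *Btla*, whose product binds HVEM as CD160 does (1.52 and 4.00). Of the higher genes, *Cd86* and *Cd70* were under 1 FPKM in PBS and could be listed only by being higher. *Cd226* and its ligand gene *Pvr* differed in direction, as did *Cd160* and *Btla*. *Cd274*, which encodes PD-L1, was among the genes known by name only.

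The lower means of *Cd226* and *Cd160* stood beside those of genes that mark NK cells, ILC1s and NCR+ ILC3s. Of 5 such markers, 4 are in the table. *Ncr1* (460.2 FPKM in PBS and 279.0 in α-DR3), *Tbx21* (121.2 and 51.0) and *Klrb1c* (103.4 and 49.97) were lower, and *Gzma* (35.2 and 126.8) was higher. Summed over the 4 markers the level was 719.8 FPKM in PBS and 506.7 in α-DR3. Their part in the lower levels of *Cd226* and *Cd160* was not tested. Among markers of ILC3s, *Il22*, *Thy1* and *Tnfrsf25*, which encodes DR3, had higher means in α-DR3.

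The 3 genes of inhibitory and self-recognition proteins had a higher mean in α-DR3, but *Cd200* and *Cd300a* were under 1 FPKM in PBS and could be listed in that direction only. *Cd47* encodes the ligand by which cells signal to SIRPα on phagocytes not to engulf them. Its mean was 255.0 FPKM in PBS and 348.4 in α-DR3, a ratio of 1.37. *Cd200*, a ligand that restrains myeloid cells through its receptor CD200R, had 0.35 and 2.15 FPKM. *Cd300a*, an inhibitory receptor of myeloid cells and some lymphocytes that binds phospholipids of dying cells, had 0.40 and 1.92 FPKM. *Cd47* thus made up nearly all of the summed level of these 3 genes in both groups, 255.8 FPKM in PBS and 352.4 in α-DR3.

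The remaining 5 genes have other surface functions. *Cd38* encodes an enzyme that consumes NAD+, and its mean was 65.2 FPKM in PBS and 33.8 in α-DR3, 1.93 times lower. *Cd97*, listed in GENCODE M21 as *Adgre5*, encodes an adhesion receptor with 7 membrane-spanning segments that binds CD55. Its mean was 52.7 and 29.0 FPKM, 1.82 times lower. *Cd93*, a C-type lectin-like protein of endothelial, myeloid and early B cells, had 20.5 and 27.4 FPKM, a ratio of 1.33, the smallest difference among the 21 genes. *Cd79b*, a signaling chain of the B cell receptor, had 10.9 and 27.2 FPKM, a ratio of 2.49. *Cd24a*, a small GPI-anchored mucin-like protein, had 0.21 and 1.44 FPKM.

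*Cd79b* was the only one of 5 B cell markers in the table, and none of 9 T cell markers is in the table. *Cd79a* and *Cd3g*, from these lists, were among the genes known by name only. Of 5 dendritic cell markers *Zbtb46* is in the table (42.3 FPKM in PBS and 71.4 in α-DR3). None of the 3 epithelium and 2 endothelium markers chosen is in the table, but these short lists do not hold every marker of such cells. A gene outside the table did not pass the authors' selection and need not be absent from the cells. Of 10 macrophage markers 6 are in the table, all with a higher mean, and their summed level was 9.45 FPKM in PBS and 56.7 in α-DR3. *Lyz2* contributed 4.08 and 37.9 FPKM to these sums, and none of the 6 was listed at 0. *C1qa*, *C1qb*, *C1qc* and *Cd14* were under 1 FPKM in PBS, so these 4 could be listed only by being higher. All 4 fibroblast markers were also higher, with summed levels of 5.98 and 14.8 FPKM, and *Col1a1* and *Col1a2*, under 1 FPKM in PBS, could likewise be listed only by being higher. The genes under 1 FPKM in PBS (*Cd86*, *Cd70*, *Cd24a*, *Cd200* and *Cd300a*) summed to 1.36 FPKM in PBS and 9.33 in α-DR3. For its flow cytometry the study names CD3, B220, CD11b and CD11c as lineage markers, and the cells sequenced here were sorted as Lin- with GFP. The purity of the sorted cells was not tested here. The part of macrophages or stromal cells in the levels of *Cd86*, *Cd300a* and *Cd200*, which such cells also express, was not tested.

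**Figure D3:**
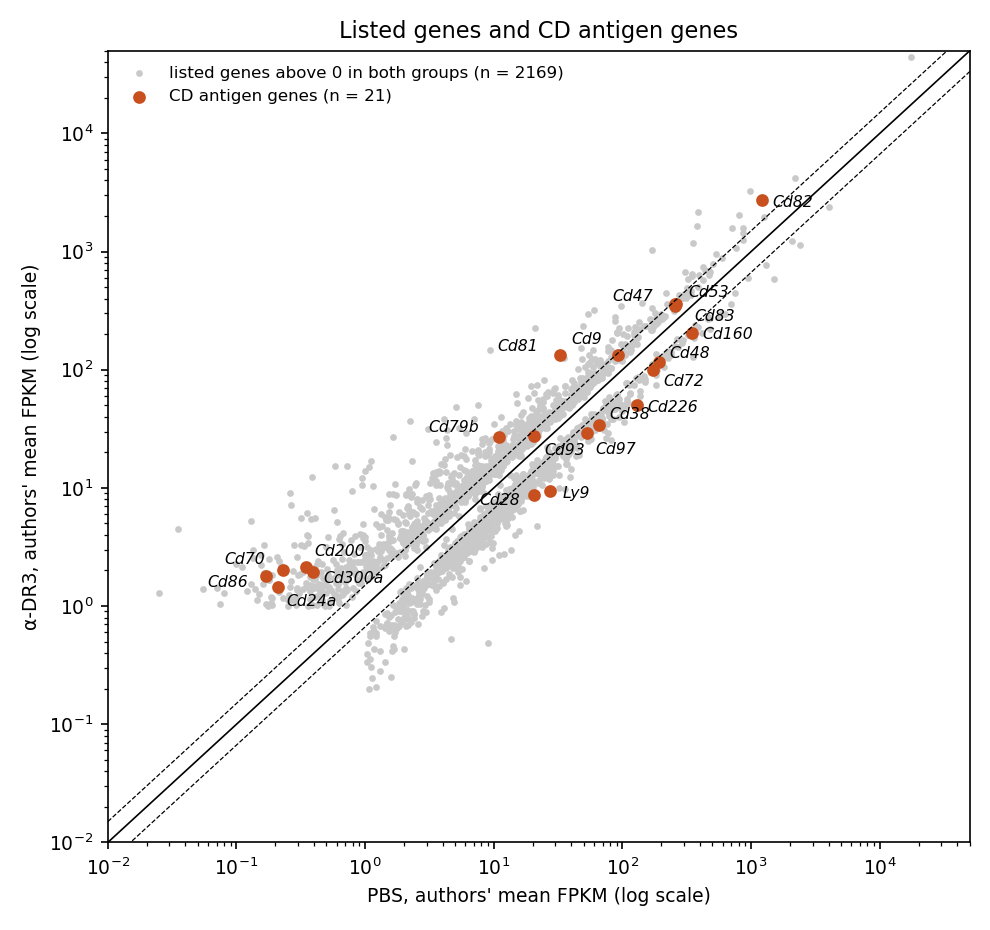
Authors' mean FPKM in α-DR3 against PBS (both log scales) for the listed genes above 0 in both groups (grey) and the 21 CD antigen genes (orange), with lines at equality (solid) and at a 1.5-fold difference (dashed). Genes are absent from the middle of the cloud because the table lists only genes that the authors selected. *Cd82* lies near the top of both scales, and 5 genes lie to the left of 1 FPKM in PBS.

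The size of a ratio at low levels depended on the scale. With 1 FPKM added to both means, the log2 ratios of the 5 low genes dropped to between 1.01 (*Cd24a*) and 1.30 (*Cd70*), from 2.78 and 3.14 without it. On that scale *Cd81* had the largest log2 ratio, 1.98 in place of 2.01. *Cd79b* had 1.24 in place of 1.32, and *Cd82* 1.16 on both scales. *Cd83*, *Cd47*, *Cd53*, *Cd9* and *Cd93*, with log2 ratios from 0.42 to 0.54, lay close to the median of all listed genes.

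**Figure D4:**
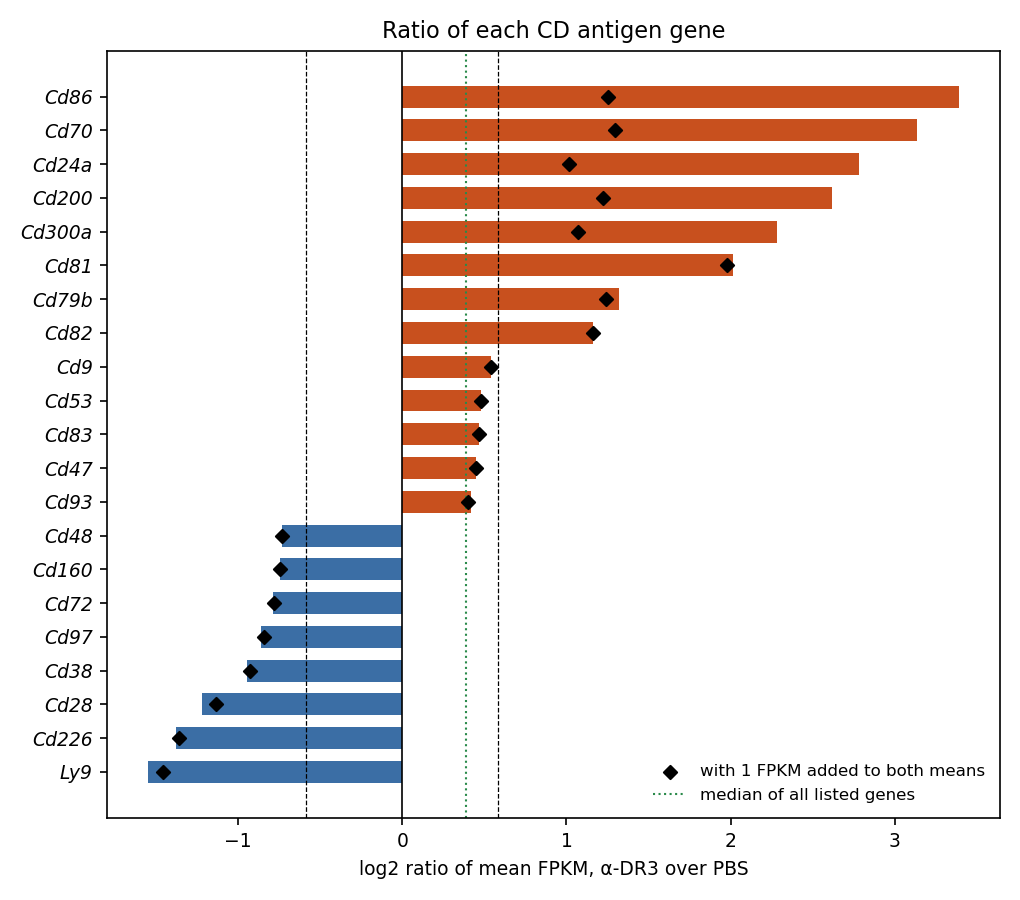
Log2 ratio of mean FPKM, α-DR3 over PBS, for each CD antigen gene (bars, orange higher and blue lower) and with 1 FPKM added to both means (diamonds). Dashed lines mark a 1.5-fold difference and the dotted green line marks the median of all listed genes, 0.39. Bars run from -1.55 for *Ly9* to 3.39 for *Cd86*, and the diamonds of the 5 upper genes lie between 1.01 and 1.30.

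Reads of some genes could also come from other genes. The library protocol in the labels names no step that marks the strand, and reads from overlapping genes on opposite strands can then not be told apart. Of the exonic bases of *Cd72* (4:43446462 to 43454628) in GENCODE M21, 41.6% are shared with *Tesk1* on the opposite strand, and 23.8% of those of *Cd97* (8:83723251 to 83741326) are shared with *Ddx39*. *Tesk1* and *Ddx39* are not in the table. *Cd9* shared 14.4% of its 50-base stretches with other transcripts, among them 8.48% with the noncoding gene *Gm26728*, and *Cd300a* shared 3.45% and *Cd24a* 2.75%. For *Cd82*, *Cd53*, *Cd48*, *Ly9*, *Cd28*, *Cd70*, *Cd79b*, *Cd83*, *Cd86* and *Cd200* no such stretch was shared.

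RefSeq promoters were matched by symbol for 11 of the 21 genes, with 16 starts in all. GGGCGG was present within 250 bases before a start in 6 of the 11 genes (*Cd9*, *Cd47*, *Cd81*, *Cd82*, *Cd160* and *Cd200*), where 32.7% of 32851 mouse promoters hold it on either strand. GGAAGT, the core of sites for ETS factors, was present in 4 genes (*Cd38*, *Cd72*, *Cd82* and *Cd160*), and 19.7% of all promoters hold it. CCAAT was present in *Cd53* and *Cd82* (33.8% of all promoters), and the κB consensus of NF-κB in *Cd300a* alone (3.90%). TATAAA (12.4%) and AGGTCA (14.0%), a half-site of nuclear receptors, were found in none of the 16 windows. *Cd48* held none of the 6 motifs. Genes with a GC box included *Cd160*, which was lower in α-DR3, and 5 genes that were higher. These matches are letters in a window and say nothing of binding. A gene with several starts had more windows to match.

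The 15 genes known by name only were *Cd3g* and *Cd247* (chains of the T cell receptor complex), *Cd79a* (the partner of CD79B), *Cd244*, *Cd274*, *Cd44* (a receptor for hyaluronan), *Cd52*, *Cd34*, *Cd36* (a scavenger receptor), *Cd163* (a scavenger receptor of macrophages), *Cd5l* (a protein secreted by macrophages), *Cd33*, *Cd46*, *Cd320* (the receptor for transcobalamin) and *Cd300lg*. Of the 21 genes with levels, *Ly9*, *Cd48*, *Cd83* and *Cd97* were also among the names that were read.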

How the data were processed

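Poly(A) RNA of sorted ILC3s was sequenced from 2 PBS and 2 α-DR3 libraries, each pooled from several mice. Per the labels and the study's methods, the authors mapped paired-end reads to GRCm38.p5 with STAR 2.5, quantified genes with RSEM 1.2 and tested them with edgeR 3.18.1. Methods name GENCODE M16, but the table has a gene status column and, for 17 of the 21 genes, identifier versions lower than in M21, so the release was not settled. The deposited values used are the FPKM means the authors computed per group. Fold changes, mean CPM, likelihood ratios, p-values and FDR of the authors' comparison are also in the table and were not used, nor were values of single libraries from the study's supplement, from which gene names alone were read. The larger mean was at least 1.005 FPKM in each row, and 10 genes were listed at 0 in a group.

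Ratios of the means were computed without pseudocount, and a 1.5-fold limit, that of the study, was applied to all 2179 genes. No test was run, since the values used hold a single mean for each group. The script that counts genes past the limit was checked on simulated data. Named genes are all genes of the rule and the genes of the fixed lists that the table holds. The genes, their lists and their roles were chosen with earlier results of these data known. Some list genes are not reported here. Positions and 50-base stretches (both strands) came from GENCODE M21, which held all 21 identifiers, and promoters from RefSeq. One planned step, motifs in the proteins, was not run because no protein table was used. Python 3.11.15, numpy 2.4.6, pandas 2.3.3 and matplotlib 3.10.9 were used.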

Additional observations from a re-analysis of the deposited data

How the results depend on the processing

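The direction of each of the 21 genes was the same with a pseudocount of 1 or 0.1 FPKM and after division by the median ratio of the listed genes, which shifted every log2 ratio by 0.39. The listed genes are a selection, so this median is no neutral reference. The counts of 8 higher and 8 lower genes past 1.5-fold did not change under these settings, although the share of all listed genes past the limit went from 37.1% higher and 38.4% lower to 21.1% and 45.3% after the division. Keeping only genes that averaged over 5 FPKM in PBS or α-DR3 left 3 higher and 8 lower of 16 CD antigen genes, beside 31.6% and 38.2% of the listed genes kept. A 2-fold limit left 8 higher and 3 lower of 21, beside 20.5% and 11.8% of the listed genes. The 8 higher genes include the 5 under 1 FPKM in PBS, whose direction was fixed by the authors' limit of 1 FPKM. The median log2 ratio of 0.47 became 0.46 with 1 FPKM added and 0.081 after the division, and it turned to -0.16 under that same limit of 5 FPKM. The same value, -0.16, and the same 3 higher genes came from requiring over 1 FPKM in both groups, a setting chosen after seeing the data, since both settings leave 16 genes. No listed gene was named after an antigen it only binds, so leaving such genes out had nothing to remove. No paired analysis was possible because the table gives group means, and for the same reason no library could be left out. The depth of the libraries is unknown, and with no value per library used the levels under 1 FPKM carry no error.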
